A study of Mus musculus with 87 samples.

Results

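H3K4me3 was profiled by CUT&RUN in wild-type mouse embryonic stem cells (mESCs) grown with or without the splicing inhibitor pladienolide B (PlaB), and the peak lists of both groups were compared at gene starts and repeat loci. The members are 6 of the 87 samples of the series: 3 lists of WT mESCs with PlaB and 3 lists of WT mESCs without it, chosen by their labels. All 6 come from the EB3 line, of 129/Ola background. PlaB inhibits the SF3B part of the spliceosome, and the study passaged mESCs in it repeatedly to obtain totipotent blastomere-like cells, so the treated group differs from the untreated one in both drug and culture history. The labels number the replicates, and the methods call them biological replicates. Other groups were used beside them only where stated: H3K4me3 in *Obox4* KO mESCs with PlaB and without it (3 lists each), a line derived by knocking out *Obox4* in the same background, H3K27ac and H3K27me3 in WT mESCs with PlaB and without it (3 lists each), 3 lists of FLAG-tagged OBOX4 from a doxycycline-induced mESC line, 1 list of FLAG-tagged DUX from another transgenic mESC line, RNA-seq of WT mESCs with PlaB (3 samples), and RNA-seq of the *Obox4* transgene line before induction (3 samples). Untreated WT mESCs had no RNA-seq among the samples used here, so the uninduced line gives only a level from another line and another count table.

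H3K4me3 is laid down by SET1 and MLL complexes at active and poised promoters, mostly at CpG-rich sequence, which the CXXC domain protein CFP1 helps them find. In early mouse embryos and in the rare 2-cell-like cells of mESC cultures, the transcription factor DUX and the retroviral element MERVL with its long terminal repeat MT2_Mm drive a set of genes that includes the *Zscan4*, *Usp17l* and *Pramef* families. In mESCs, developmental genes carry H3K4me3 together with the Polycomb mark H3K27me3 and are called bivalent. In this text a gene is held by a group when bases covered in at least 2 of its 3 lists lie within 3 kb of the annotated gene start. A gene is gained when PlaB holds it and none of the untreated lists has a peak there, and lost in the reverse case.

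The first windows are from regions held with PlaB and free of peaks in all 3 untreated lists (GRCm38, plus strand). In the region windows on chromosomes 1 and 7 the capitals mark the letters TGATTNAATCA, where N is any base, a word known from mouse DUX sites. The chromosome 7 window begins before its region (104776292 to 104776583), and the marked letters lie outside that region. Its peaks were weak, with a fold enrichment of 3.76 and 3.64 in PlaB lists 1 and 3 and no peak in list 2. The window on chromosome 15 lies on MT2_Mm and MERVL-int and has no such match, and in the window on the LINE-1 element L1Md_T the capitals mark CG dinucleotides.
chr1:51614205-51614504: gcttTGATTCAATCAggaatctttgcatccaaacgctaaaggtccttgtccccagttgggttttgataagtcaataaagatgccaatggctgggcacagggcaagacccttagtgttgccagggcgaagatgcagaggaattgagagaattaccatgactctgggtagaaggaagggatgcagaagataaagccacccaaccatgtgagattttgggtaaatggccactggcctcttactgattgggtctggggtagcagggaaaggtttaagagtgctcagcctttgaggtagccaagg
chr7:104776170-104776469: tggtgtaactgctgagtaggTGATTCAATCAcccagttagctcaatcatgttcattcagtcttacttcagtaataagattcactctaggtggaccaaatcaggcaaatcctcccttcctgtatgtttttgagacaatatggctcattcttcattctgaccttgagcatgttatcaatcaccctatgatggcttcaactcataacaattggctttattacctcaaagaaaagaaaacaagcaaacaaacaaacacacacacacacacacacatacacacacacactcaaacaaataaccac
chr15:24310591-24310890: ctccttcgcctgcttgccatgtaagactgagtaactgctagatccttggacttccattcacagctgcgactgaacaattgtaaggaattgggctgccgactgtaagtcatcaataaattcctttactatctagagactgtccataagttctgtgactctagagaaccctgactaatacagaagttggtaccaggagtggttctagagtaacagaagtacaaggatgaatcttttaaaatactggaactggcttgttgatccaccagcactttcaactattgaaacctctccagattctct
chr3:41769952-41770251: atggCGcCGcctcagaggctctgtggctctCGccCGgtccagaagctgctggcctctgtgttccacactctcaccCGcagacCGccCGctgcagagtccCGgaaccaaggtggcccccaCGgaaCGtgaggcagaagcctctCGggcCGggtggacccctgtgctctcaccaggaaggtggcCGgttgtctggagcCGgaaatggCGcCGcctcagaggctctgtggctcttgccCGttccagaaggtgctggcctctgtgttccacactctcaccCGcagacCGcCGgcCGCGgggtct

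The promoters below span 300 bases, most of them before the gene start, on the strand of the gene, with CG dinucleotides in capitals. *Zscan4c* and *Usp17le* were gained, *Tnc* was lost and *Ednrb* fell. They hold 4 CG dinucleotides in *Zscan4c*, 2 in *Usp17le* and 10 in each of *Tnc* and *Ednrb*, beside a median of 4 over all genes and 11 over protein-coding genes.
Zscan4c, chr7:11005495-11005794, plus: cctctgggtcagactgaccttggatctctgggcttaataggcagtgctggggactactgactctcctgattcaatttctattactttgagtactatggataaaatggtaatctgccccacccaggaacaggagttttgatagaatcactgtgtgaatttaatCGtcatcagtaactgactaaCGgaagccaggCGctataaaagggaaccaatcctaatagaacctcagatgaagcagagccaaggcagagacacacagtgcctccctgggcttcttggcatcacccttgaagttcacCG
Usp17le, chr7:104777421-104777720, minus: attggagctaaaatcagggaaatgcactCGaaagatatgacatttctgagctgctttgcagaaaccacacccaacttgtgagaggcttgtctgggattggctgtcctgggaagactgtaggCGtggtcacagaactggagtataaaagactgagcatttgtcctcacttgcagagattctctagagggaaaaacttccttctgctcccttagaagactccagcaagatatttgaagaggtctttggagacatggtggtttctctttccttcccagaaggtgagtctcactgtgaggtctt
Tnc, chr4:64046966-64047265, minus: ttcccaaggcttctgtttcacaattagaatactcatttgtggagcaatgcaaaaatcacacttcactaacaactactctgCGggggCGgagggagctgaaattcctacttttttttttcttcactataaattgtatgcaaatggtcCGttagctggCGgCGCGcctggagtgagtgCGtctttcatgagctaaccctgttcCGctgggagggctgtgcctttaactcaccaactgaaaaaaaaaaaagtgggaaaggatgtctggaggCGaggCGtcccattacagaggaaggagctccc
Ednrb, chr14:103844353-103844652, minus: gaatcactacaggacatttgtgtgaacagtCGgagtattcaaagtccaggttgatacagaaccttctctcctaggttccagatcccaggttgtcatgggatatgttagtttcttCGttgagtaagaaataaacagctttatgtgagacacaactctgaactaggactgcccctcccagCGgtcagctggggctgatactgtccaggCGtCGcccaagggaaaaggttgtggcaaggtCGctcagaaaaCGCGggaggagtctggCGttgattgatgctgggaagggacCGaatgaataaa

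The lists with PlaB were shorter and closer to gene starts than the untreated lists. They held 32127, 33840 and 31829 peaks with PlaB, against 49318, 50367 and 48273 in untreated mESCs, a ratio of 0.661. Peaks covered 42.2 ± 2.69 Mb with PlaB and 69.4 ± 2.11 Mb untreated (SD, n = 3 each), and 51.2 ± 0.870% with PlaB and 39.9 ± 0.422% untreated lay within 3 kb of a gene start. No library overlapped the other group on these measures, and the exact two-sided permutation test gave p = 0.10, the smallest that 3 against 3 allows. The median peak length was close, with 1005 ± 52.7 bases with PlaB and 1002 ± 33.1 bases untreated (exact permutation p = 1). The fragment depth implied by the lists differed too: the genome background that the peak caller used was 1.53, 1.34 and 1.09 fragments per base with PlaB, against 2.13, 2.17 and 1.83 untreated. When every list was scaled to the lowest of these backgrounds, an alternative chosen after seeing the data, the ratio of peaks was 0.700.

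Pluripotency genes were marked in both groups, which is only a weak check of the cell type, since most neuron markers were held too. Of 28 pluripotency genes, 25 were held with PlaB and 26 untreated. *Sox2* had an enrichment of 42.0, 38.5 and 49.4 with PlaB, against 41.9, 46.4 and 36.7 untreated, where enrichment is the caller's fold enrichment at the peak summit, (fragments + 1) over (local background + 1). None of 25 olfactory receptor genes was held in either group, and markers of fibroblasts (8 of 18 with PlaB, 11 untreated), neurons (11 and 13 of 15) and blood (3 and 5 of 14) were held at similar or lower numbers with PlaB.

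Chromosome Y set the groups apart. Its first 3 Mb, which hold the single-copy male genes, had 11, 10 and 12 H3K4me3 peaks with PlaB, against 6, 7 and 7 untreated, and H3K27ac showed 11 peaks in each list with PlaB, against 0, 1 and 1 untreated. *Eif2s3y*, a translation initiation factor gene, had an enrichment of 24.5, 22.6 and 16.2 with PlaB and no peak in any untreated list. *Ddx3y*, an RNA helicase gene, had 23.7, 27.3 and 25.3 with PlaB and no peak untreated, and both genes had peaks in all 6 *Obox4* KO lists. The share of cells that carry the Y chromosome in each culture was not tested. Without chromosome Y, 85 genes counted as gained in place of the 88 below.

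**Figure D1:**
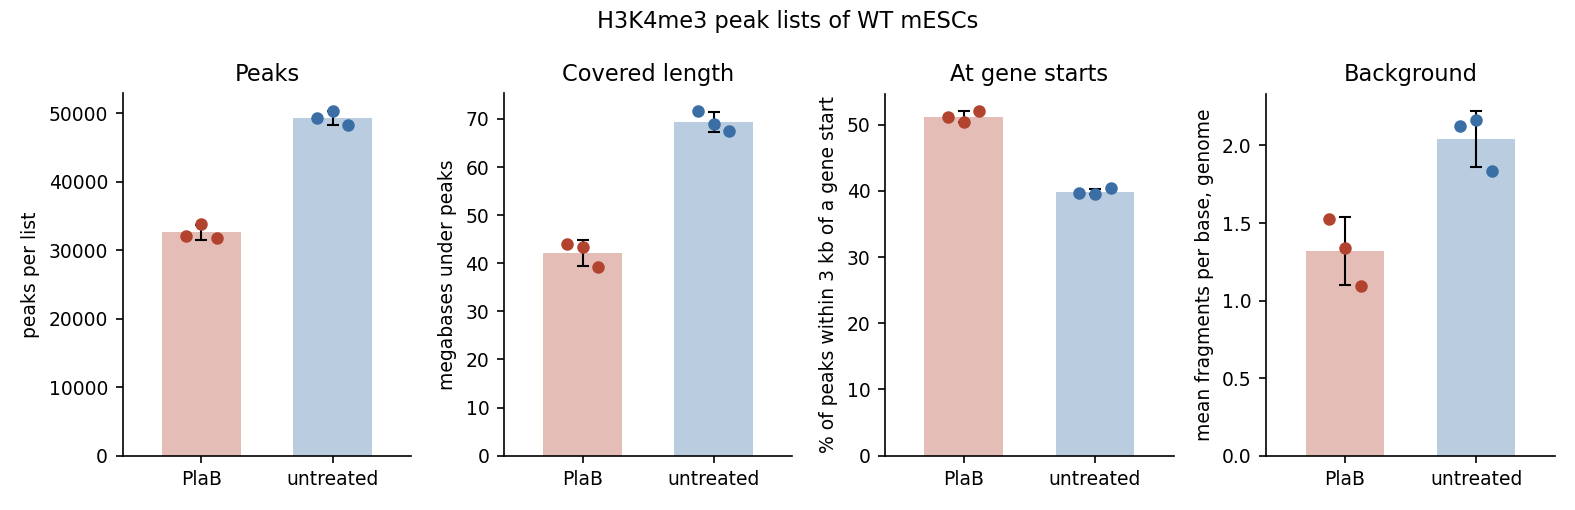
Number of peaks, covered length in Mb, percent of peaks within 3 kb of a gene start and genome background in fragments per base for the H3K4me3 lists of WT mESCs with PlaB (left) and untreated (right). Points are libraries, bars are means and error bars are SD (n = 3 each). The lists with PlaB hold 32599 peaks on average and the untreated lists 49319.

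At gene starts, PlaB was followed by few gains and many losses. Of 55364 genes assessed, 88 were gained (0.159%) and 1908 were lost (3.45%), while 19707 were held by both groups. Of the gained genes 46 had a peak in all 3 lists with PlaB and 41 are protein coding, and of the lost genes 1374 had a peak in all 3 untreated lists and 527 are protein coding. Multicopy families of the 2-cell stage, genes of meiosis and the Y genes above are among the gained genes, and the others include pseudogenes, predicted genes and non-coding RNA genes. The count of gains depends on how peaks are chosen: it was 56 without PlaB replicate 1 and 55 without PlaB replicate 2, since both remaining lists then had to hold the peak, 42 with only peaks of −log10 q of at least 10, and 291 when every list was cut to its 31829 strongest peaks, under which 588 genes were lost. In a bulk profile, a mark on fewer cells and less of the mark per cell cannot be told apart.

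The *Zscan4* family, whose members act at telomeres and mark 2-cell-like mESCs, was among the gained families. Of 9 members 7 were gained and none had a peak in any untreated list. *Zscan4c* (chromosome 7, start 11005745) had an enrichment of 6.33, 4.71 and 4.30 with PlaB, *Zscan4f* (start 11397915) had 5.13, 6.41 and 4.86, and *Zscan4e* had 5.51, 5.55 and 4.28. Each of these genes had a peak in all 3 lists with PlaB and in none without it. A list without a peak was entered at its own lowest enrichment (1.37 to 1.57 with PlaB, 1.427 to 1.497 untreated). On the log2 scale *Zscan4f* was then higher by 1.96 ± 0.23 (SE, limma adjusted p = 0.000552), a value that depends on that entry. Log2 changes given below for other gained genes rest on the same entry. Gained genes were chosen for having no untreated peak, so the direction of these changes was fixed by that choice. Their p-values are therefore no evidence apart from it. *Zscan4a* and *Zscan4b* had peaks in PlaB lists 1 and 2 only, at 5.54 and 4.70 and at 5.54 and 5.13. *Zscan4d*, the member with the best known expression in 2-cell embryos, had 4.35 and 4.28 in PlaB lists 1 and 3, but these peaks share no bases, so that it does not count as held. Since the copies are nearly identical, the share of fragments that belongs to each copy is uncertain. Peaks are called at each copy, so the absence of untreated peaks may depend on that share too. Fragments summed over the family were not examined.

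The *Usp17l* deubiquitinase genes followed. *Usp17le* (chromosome 7, start 104777470) had 11.1, 6.20 and 6.27 with PlaB and no untreated peak, and *Usp17la* (start 104857009) had 5.54, 5.98 and 7.64 with PlaB and none untreated. *Usp17ld* had 4.44, 6.84 and 3.82. Of 6 members 3 were gained and none was held untreated, and *Usp17lb* had no peak in any list. *Usp17le* was higher by 2.44 ± 0.29 on the log2 scale (limma adjusted p = 0.000595), with the same limits as for *Zscan4f*. Its value of 11.1 in PlaB list 1 came from a peak with its summit 4607 bases from the start, outside the window.

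*Tmem92*, a gene of a transmembrane protein that is expressed in 2-cell-like cells, had 7.37, 6.26 and 7.05 with PlaB (chromosome 11, start 94782703) and no peak untreated, and all 4 genes of its group were gained. Its enrichment was higher by 2.31 ± 0.21 on the log2 scale (limma adjusted p = 0.000268), and lost its call where only peaks of −log10 q of at least 10 were used, at 1.37. In the *Pramef* family, leucine-rich repeat proteins of the germ line and early embryo, 5 of 14 genes were gained, while 9 were held with PlaB and 4 untreated. *Pramef25* had 6.17, 5.22 and 5.30 with PlaB and *Pramef6* had 7.91, 5.44 and 3.36, and neither had an untreated peak. In the cluster of chromosome 12 around *Gm8332* (start 88250100), 13 of 98 genes were gained, most of them predicted copies such as *Gm8332* (8.21, 5.51 and 6.65) and *Gm4027* (5.40, 8.00 and 5.77), next to 17 genes held without PlaB. In that cluster gains and held copies thus lay side by side.

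Genes of meiosis were among the other gains, beside *Lhcgr*, the luteinizing hormone receptor gene (3.95, 4.70 and 6.69 with PlaB and none untreated), and *Mir7-2* (6.72, 4.70 and 6.18 with PlaB and none untreated). *Sycp1*, which encodes the transverse filament of the synaptonemal complex, had 4.75, 5.13 and 6.21 with PlaB and no untreated peak (log2 change 1.94 ± 0.22, limma adjusted p = 0.000538). *Sycp2*, a lateral element gene, had 6.72 and 5.08 in PlaB lists 1 and 2, *Stra8*, the inducer of meiosis by retinoic acid, had 3.66 and 4.12 in the same lists, and *Tex12*, a central element gene, had 4.35, 3.42 and 4.30 in all 3. None of the 3 had a peak in the untreated WT lists. In *Obox4* KO mESCs, however, *Stra8* had 6.95, 6.48 and 7.19 with PlaB, and 5.98 and 3.93 in untreated lists 1 and 2. *Sycp2* and *Tex12* had no peak in any KO list. *Asz1*, a piRNA pathway gene, had 5.14, 5.77 and 6.86 with PlaB, against no peak, 3.72 and 3.13 untreated (log2 change 1.27 ± 0.35, adjusted p = 0.0191), and without PlaB replicate 3 or untreated replicate 1 it was 1.17 and 0.879 and no longer called. Over the germ line and meiosis list, 3 of 24 genes were gained and 1 was lost, *Piwil2*, with 6.08, 5.37 and 4.24 in the untreated lists. Of 50 genes of the 2-cell stage found in the annotation, 10 were gained and none lost, 29 were held with PlaB and 19 untreated, and among the 29 tested 9 were called higher and 2 lower.

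The genes of the factors that act upstream of this set were not gained. *Duxf3*, the gene copy that encodes DUX, had 5.63, 7.32 and 9.26 with PlaB, against 4.60, 3.89 and 3.71 untreated, and stayed under the size threshold (log2 change 0.91 ± 0.24, limma adjusted p = 0.0158). It passed without PlaB replicate 1 (1.08) or untreated replicate 1 (1.03). Of 39 *Obox4* copies, 1 had a peak in 1 list with PlaB, none was held, and none had a peak untreated. *Sp110*, which the study names as a target of DUX and OBOX4 and not as an upstream factor, had no peak at its start in any list. H3K4me3 at *Dppa2*, which encodes a chromatin factor that activates *Dux*, fell: 6.33, 6.41 and 5.26 with PlaB, against 15.99, 15.8 and 13.8 untreated (log2 change −1.27 ± 0.18, limma adjusted p = 0.00108). Summit fragments over the genome background gave −1.25 for it. *Dppa2* and the *Zscan4* genes moved in opposite directions in the same lists.

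**Figure D2:**
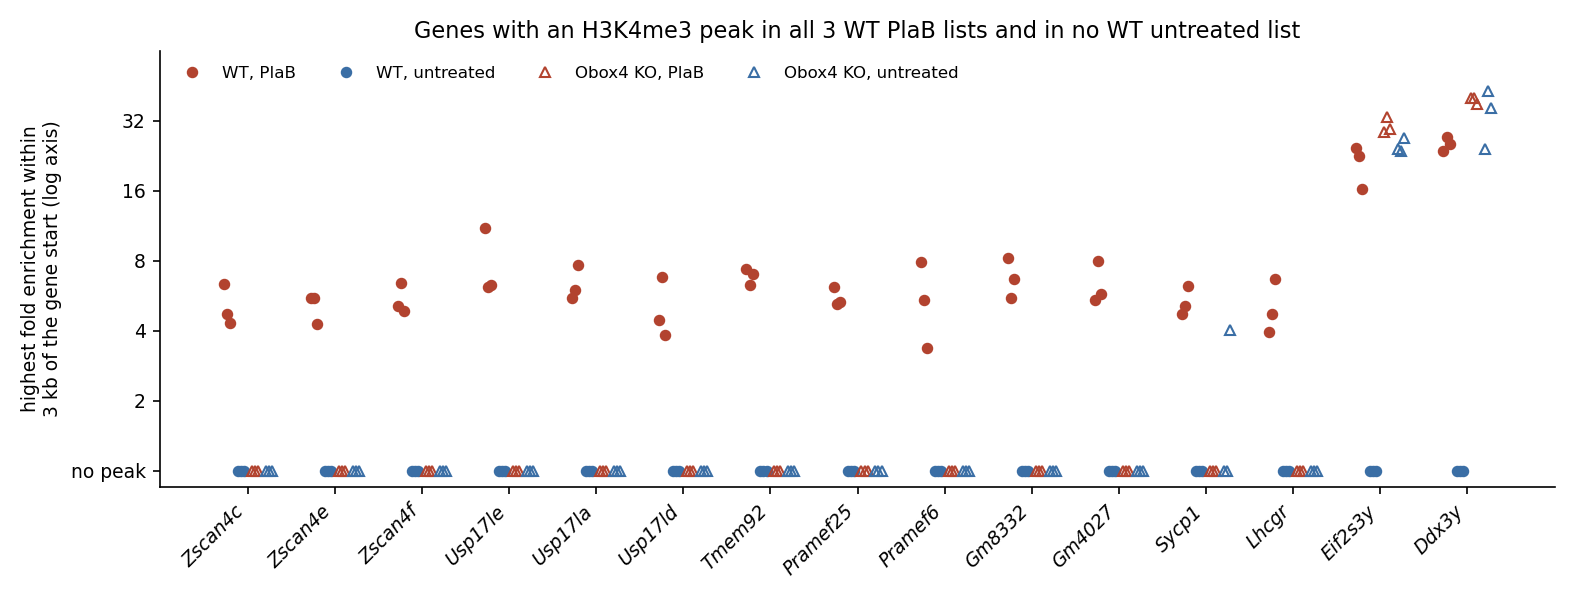
Enrichment of H3K4me3 at 15 gained genes in each library (log axis), in 4 columns of points: WT with PlaB, WT untreated, *Obox4* KO with PlaB and *Obox4* KO untreated, with lists without a peak drawn at 1. The *Zscan4*, *Usp17l* and *Tmem92* genes have peaks in WT with PlaB alone, while *Eif2s3y* and *Ddx3y* also have peaks in all KO lists.

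Losses at gene starts have to be read with the position of the summit. *Snord70*, a small nucleolar RNA gene named by the rule for lost genes, had no peak with PlaB, against 58.8, 65.4 and 63.6 untreated, but that untreated summit lay at −5617, −6209 and −6247 bases from the start, and peaks of 73.2, 65.9 and 61.8 stood near it with PlaB. Of the 12 lost genes named by the rule, 11 had such a distant summit with a peak near it in all 3 lists with PlaB. The peak near that summit differed in its own level among the 11: at *Coq8a* it was 16.7, 15.1 and 13.2 with PlaB, against 32.6, 39.2 and 41.7 untreated, and at *Cnga1* 13.6, 13.1 and 13.4 with PlaB, against 25.5, 30.3 and 33.9 untreated. By the median distance over lists, the summit also lay outside the window for all 8 genes named as most lowered among those with a peak in all 6 lists, such as *Six3* and *Pax9*. By that median it did so for none of the 12 named gains. In PlaB list 1 alone, however, it lay outside for *Usp17le* (4607 bases from the start) and *Pramef25* (−3028). Over all lost genes, 1705 of 1908 had an untreated summit inside the window. The genes named next were therefore taken, after their values had been seen, from those whose highest summit lay within 1 kb of the start in all 3 lists of the group that held them: 16 gained and 599 lost genes, of which 231 lost ones are protein coding.

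Among the losses with such a summit were genes of tissue-restricted function. *Tnc*, an extracellular matrix glycoprotein gene (chromosome 4, start 64047015), had no peak with PlaB, against 8.96, 11.7 and 9.53 untreated. *Tmem233* had none with PlaB, against 15.4, 18.0 and 11.7, *Plpp7* none against 11.7, 13.1 and 11.5, and *Il18*, a cytokine gene of the inflammasome pathway, none against 10.6, 11.4 and 11.3. *Batf*, a transcription factor gene of lymphocytes, had none with PlaB, against 7.68, 8.53 and 10.9 untreated. Beside these values, the median over all peaks of a list was 12.3 ± 0.783 with PlaB and 9.08 ± 0.108 untreated. *Tnc*, *Plpp7*, *Tmem233* and *Batf* had H3K27me3 in all 3 lists of both groups, while *Il18* had it in none. RNA was low for these examples, at most 0.929 CPM (counts scaled to the library total) with PlaB. This was not so for every such loss: *Pdgfrb*, also lost with a close summit, had 13.4 CPM with PlaB.

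Of 22527 genes held by at least 1 group, 292 were called higher in enrichment (1.3%) and 3285 lower (14.6%), where a call needs a limma adjusted p of at most 0.05 and a log2 change of at least 1 in size. Of the lower calls 1365 were lost genes and 1121 were at genes with a peak in all 6 lists, and of the higher calls 44 were gained genes and 218 were at genes with a peak in all 6 lists. With summits within 1 kb of the start in all 6 lists, *Ednrb*, the endothelin receptor gene of neural crest cells, had 3.56, 4.70 and 6.18 with PlaB, against 23.99, 21.8 and 22.9 untreated (log2 change −2.21 ± 0.21, limma adjusted p = 0.000301). *Hopx*, an atypical homeodomain gene of heart and other tissues, had 6.33, 5.98 and 4.28 with PlaB, against 21.4, 22.7 and 22.2 untreated. *Kcnip3* had 3.71, 4.12 and 4.82 with PlaB, against 22.4, 19.6 and 16.2 untreated. For each of the 3 the groups lay far apart, and each was also lower by summit fragments. There were 338 genes of this kind, with a peak in all 6 lists, a close summit and a call on both measures, and 188 are protein coding.

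By contrast, most higher calls at genes with a peak in all 6 lists were not found in the fragments at the summit. *Pou5f1*, which encodes OCT4, led the higher genes, with 88.6, 89.7 and 77.9 with PlaB, against 13.5, 13.5 and 22.0 untreated (log2 change 2.49 ± 0.19, limma adjusted p = 0.000147). Its summit held 223, 209 and 162 fragments with PlaB, against 284, 281 and 239 untreated, and over the genome background the log2 change was 0.12 ± 0.08 (adjusted p = 0.214). The caller's local background at this peak was 1.53, 1.34 and 1.09 with PlaB, against 20.1, 19.8 and 9.91 untreated. Of 218 genes called higher with a peak in all 6 lists, 12 were higher on both measures, and their median local background, over the genome background, was 1.00 with PlaB and 2.58 untreated. *Trim24*, *Ube3c*, *Zxdc* and *Rundc1* were likewise called by enrichment and not by summit fragments. With a close summit, *Atxn1l* alone passed both, with 18.8, 21.3 and 19.03 with PlaB, against 7.38, 10.9 and 12.3 untreated, and its log2 change of 1.05 ± 0.20 (limma adjusted p = 0.0037) went under the threshold without PlaB replicate 2 (0.99) or untreated replicate 1 (0.857). Over all genes tested, 97 were higher by summit fragments (0.431%) and 2192 lower (9.73%), and 67 and 1847 were called on both measures.

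**Figure D3:**
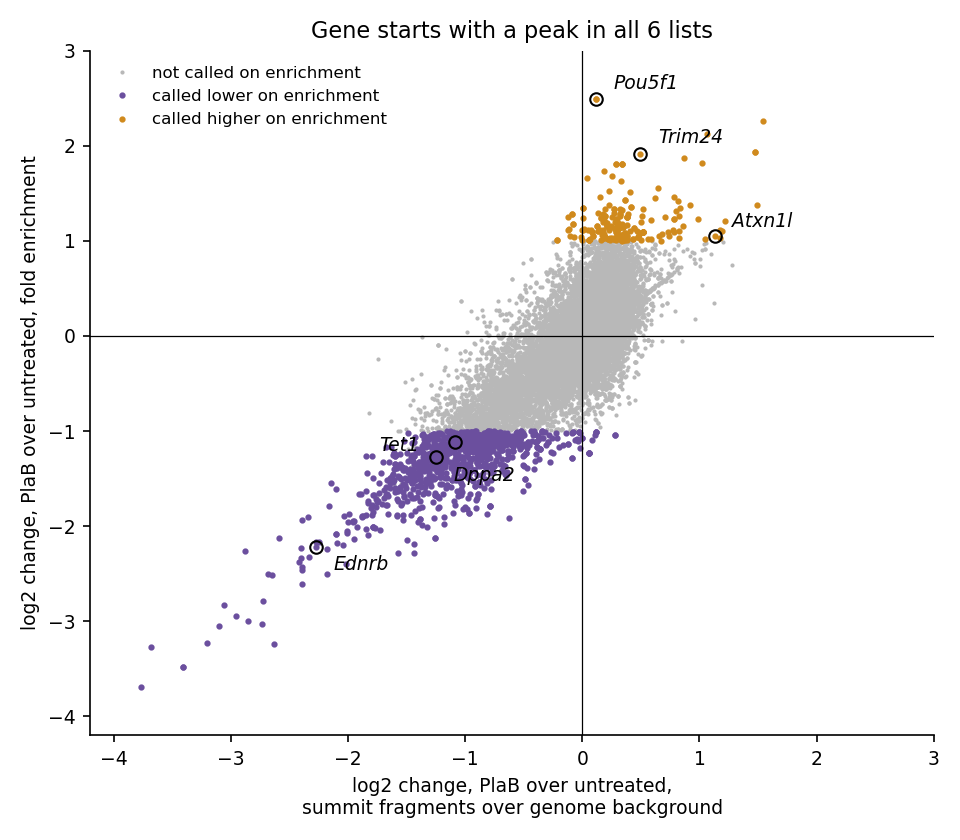
Log2 change, PlaB over untreated, of summit fragments over genome background (x axis) and of the enrichment (y axis), 1 point per gene with a peak in all 6 lists. *Pou5f1* and *Trim24* lie high on the y axis at fragment changes of 0.12 and 0.49, while *Ednrb* and *Dppa2* are low on both axes.

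The marked stretch around gene starts became shorter. Over 19063 genes with a peak in all 6 lists, the median covered length within 3 kb was 0.834-fold that of untreated mESCs, 2937 genes were narrower (15.4%) and 16 wider (0.0839%) by at least 1.5-fold (limma, adjusted p of at most 0.05). The shift was general, and with the medians made equal 1133 were narrower and 45 wider. *Hopx* and *Ednrb* were among the narrower genes, and *Meioc*, a meiosis gene, was wider.

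Most pluripotency genes were not called. Among 26 tested, 1 was called higher, *Pou5f1*, and 5 lower, and the median log2 change was −0.10. Over all genes tested 14.6% were called lower and the median was −0.14, so the list lay near the whole. *Nr5a2*, an orphan nuclear receptor gene, had 5.54, 5.98 and 4.76 with PlaB, against 15.99, 20.2 and 12.003 untreated (log2 change −1.47 ± 0.23, limma adjusted p = 0.00168). *Tet1*, a methylcytosine dioxygenase gene, had 6.72, 6.84 and 5.26 with PlaB, against 16.3, 12.9 and 13.4 untreated (−1.11 ± 0.20, adjusted p = 0.00308), and came just under the size threshold without PlaB replicate 3 (−0.98, adjusted p = 0.00761) or untreated replicate 1 (−0.99, adjusted p = 0.015). *Lifr*, the receptor gene of leukemia inhibitory factor, was lost, with 6.72, 6.00 and 3.88 in the untreated lists.

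Of 20 genes of the formative and primed state 5 were called lower and none higher, beside 14.6% lower over all genes tested, and by summit fragments 3 were lower with a median of −0.10. Nodal antagonists and a WNT ligand are among the 5. *Lefty2* had 16.9, 17.2 and 14.1 with PlaB, against 61.6, 64.6 and 60.02 untreated (log2 change −1.89 ± 0.12, limma adjusted p = 7.23e-05), and *Lefty1* had 7.91, 6.41 and 5.73, against 18.9, 20.6 and 20.3. *Wnt3* had 6.75, 5.63 and 4.58 with PlaB, against 16.3, 18.6 and 22.9 untreated. *Otx2*, a transcription factor gene of the epiblast, had 15.2, 12.1 and 13.0 with PlaB, against 32.6, 35.1 and 33.2 untreated, and its call rested on enrichment, since summit fragments gave −0.72. *Nodal* itself was not called, with 48.6, 59.4 and 52.6 with PlaB, against 51.8, 54.0 and 57.9 untreated.

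Of 39 Hox genes 38 were held with PlaB and all 39 untreated, 9 were called lower and none higher, the median log2 change was −0.45, and 14 of 37 were narrower. *Hoxb13* had 10.4, 8.44 and 9.03 with PlaB, against 32.1, 29.2 and 30.5 untreated (−1.65 ± 0.15, limma adjusted p = 0.000246). The falls at *Hoxa6* and *Hoxa7* came from peaks with a summit outside the window, and *Hoxa5* was not called, with 54.7, 48.5 and 48.98 with PlaB, against 44.3, 47.7 and 47.1. Of 54 developmental transcription factor genes 8 were called lower, a share near that of all genes tested (14.6%), and none higher. Their median was −0.46, against −0.14 over all genes tested, and 13 of 51 were narrower. In the primitive endoderm list 3 of 17 were called lower, and *Gata4*, with 5.64, 5.37 and 5.30 untreated and no peak with PlaB, was lost, though its summit lay near the edge of the window.

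Housekeeping lists had almost no calls. None of 27 ribosomal protein genes and none of 26 genes of p53 and apoptosis was called, and of 29 genes of SF3B and the spliceosome, the target complex of PlaB, 1 was called higher, *Srsf3*, and none lower. *Srsf3* had 52.2, 51.3 and 42.0 with PlaB, against 32.8, 19.5 and 20.4 untreated, without a call by summit fragments. Of 30 imprinted genes 25 were held with PlaB and 26 untreated, and 1 was called lower, *Igf2*, with 6.72, 7.58 and 7.06 untreated and no peak with PlaB.

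Over all peak regions the losses were larger still. Regions held by at least 1 group numbered 49921, of which 28506 were held by both, 625 were gained (1.25%) and 16529 were lost (33.1%). Gained and lost regions were short and weak: the median length was 276 bases for gained and 485 for lost regions, against 1626 for those held by both, and the median enrichment was 5.00 with PlaB in gained regions and 4.73 untreated in lost ones, against 15.4 with PlaB in shared ones. Of the gained regions 72.3% lay on a repeat away from gene starts, 21.9% at a gene start and 5.76% at neither, and of the lost ones 43.6%, 18.9% and 37.6%. With each list cut to 31829 peaks, 1922 regions were gained and 3296 lost, and without PlaB replicate 1 or 2 the gained ones numbered 395 and 330.

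LINE-1 elements took up much of the gain by number. Of the gained regions 181 (29.0%) lay on L1Md_T and 133 (21.3%) on L1Md_A, young mouse LINE-1 families whose promoters sit in tandem CpG-rich monomers. The place of these regions within the element was not tested. The chromosome 3 window shown above is from a region that had an enrichment of 7.53, 6.57 and 10.1 with PlaB and no peak untreated. But these families were peaked in both groups: 2794, 2920 and 2832 of 23639 L1Md_T loci had a peak with PlaB, against 2592, 2654 and 2594 untreated, a log2 change of 0.12 ± 0.04 (limma adjusted p = 0.0225) that stayed under the size threshold. Of the 313 gained regions on either family, 127 were held in *Obox4* KO mESCs with PlaB and 153 in untreated KO mESCs. Over all 625 gained regions, 169 (27.04%) and 210 (33.6%) were held in these groups. None of the 313 overlapped the DUX list, beside 5.6% of all gained regions. Short reads that fit many LINE-1 copies make the assignment to 1 locus uncertain.

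Of 663 repeat names tested, 2 were called higher (0.302%) and 406 lower (61.2%) by limma on the share of loci under a peak. Those higher were MERVL-int and MT2_Mm. The counts depend on the scaling, with 25 higher and 20 lower when the medians were made equal, and 3 higher and 138 lower in lists of equal number. MERVL-int, the internal part of the endogenous retrovirus that marks 2-cell-like cells, had a peak at 40, 27 and 16 of 2569 loci with PlaB, against 8, 4 and 7 untreated (log2 change 1.71 ± 0.35 with 0.1% added, adjusted p = 0.00415). MT2_Mm, its long terminal repeat, had 49, 41 and 25 of 2641 loci with PlaB, against 17, 13 and 14 untreated (1.202 ± 0.25, adjusted p = 0.0047). The share was small in both groups, 1.08 ± 0.468% with PlaB and 0.247 ± 0.0810% untreated for MERVL-int, and the peaks were weak: with only peaks of −log10 q of at least 10 the log2 changes were −0.30 and −0.34, and with 1% added they were 0.71 and 0.64 and not called. The groups did not overlap for either element.

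Relatives of MT2_Mm did not rise with it. MT2A had 54, 61 and 44 of 10127 loci with PlaB, against 134, 129 and 116 untreated (log2 change −1.12 ± 0.13, limma adjusted p = 0.000499), and MT2B had 244, 231 and 183 of 13959, against 487, 442 and 436. Both values were close to the median of all repeat names, which was −1.10, and with the medians made equal they stood at 0.14 and 0.24. SINEs fell with the lists, 11 of 12 names called lower at a median of −1.08, as did MaLR elements, 12 of 17 at −1.19. LINE-1 names had none of 10 called (median −0.30), and IAP elements 2 of 9 called lower (median −0.26). The lists with PlaB are shorter, and in lists cut to an equal number of peaks the median over all names was −0.75.

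**Figure D4:**
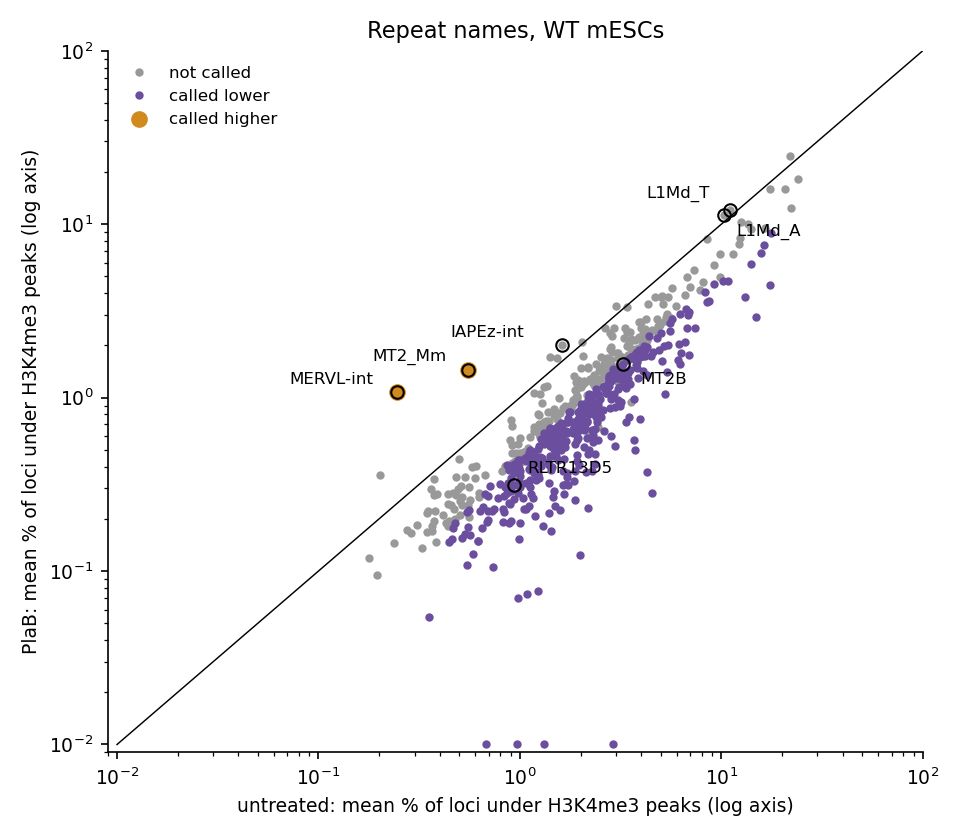
Mean percent of loci under an H3K4me3 peak, untreated (x axis) and with PlaB (y axis), 1 point per repeat name on log axes, with 0 drawn at 0.01%. MERVL-int and MT2_Mm lie above the diagonal, L1Md_T and L1Md_A lie on it, and most names, MT2B among them, lie below.

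The gained regions on MERVL were few. There were 20 on MT2_Mm or MERVL-int. Of these, 3 (15%) overlapped the DUX list and 3 (15%) the OBOX4 lists, beside 5.6% and 3.04% of all 625 gained regions. H3K27ac overlapped 5 (25%) with PlaB and 1 (5%) untreated, beside 15.04% and 4.16% of all gained regions. None of the 20 was held in *Obox4* KO mESCs, with PlaB or without it, beside 27.04% and 33.6% of all gained regions. The chromosome 15 region shown above (24310498 to 24310965) had 3.34, 5.50 and 4.198 with PlaB and no peak untreated, and overlapped DUX, OBOX4 and H3K27ac with PlaB. The gained chromosome 1 region (51613278 to 51614904) was stronger, at 8.70, 8.55 and 8.56, lay at no gene start and not on MERVL, and overlapped the DUX list and H3K27ac with PlaB.

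The H3K27ac and DUX lists separated the gained genes from the lost ones. H3K27ac was held at 43.2% of the 88 gained genes with PlaB, against 7.95% untreated, while over all genes it was 21.2% with PlaB and 23.0% untreated. At the 1908 lost genes H3K27ac was held at 18.4% with PlaB, against 29.1% untreated. The DUX list had a peak at 27 gained genes (30.7%), against 0.472% of lost genes and 0.883% of all genes. Many of the 27 are clustered relatives, such as the *Zscan4* copies, *Tmem92* with *Gm11543*, and copies of the chromosome 12 cluster. Such genes are not independent, and many of them also count in the H3K27ac share with PlaB. The OBOX4 lists held 17.05% of gained genes, close to the 17.2% of all genes. H3K27me3 was held at 18.2% of gained genes with PlaB, against 27.3% untreated, and at 31.7% of lost genes with PlaB, against 34.5% untreated. Over all genes it was 20.9% with PlaB and 22.1% untreated, near the gained genes. Both DUX and OBOX4 lists come from induced or tagged transgene lines and not from cells with PlaB.

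RNA was high at the gained families. *Usp17le* had 252 ± 6.70 CPM in WT mESCs with PlaB, against 3.58 ± 0.178 CPM in the uninduced line (SD, n = 3 each), *Zscan4f* had 115 ± 12.2 against 2.04 CPM, and *Tmem92* had 77.9 ± 3.57 against 1.49 CPM. The median over gained protein-coding genes was 35.6 CPM with PlaB and 0.719 CPM in the uninduced line, while for lost ones it was 0.537 and 0.345 CPM and for genes held by both 18.9 and 17.7 CPM. No test was made between these tables. *Sp110*, without any H3K4me3 peak at its annotated start, had 20.8 ± 0.911 CPM with PlaB, against 0.308 CPM, the *Obox4* copies summed to 15.8 against 0.451 CPM, and *Dppa2*, where H3K4me3 fell, had 219 ± 8.76 against 44.0 CPM. At these genes the RNA level and the peak at the annotated start did not go together. Among repeats, MERVL-int RNA stood at 14765 ± 1012 CPM and MT2_Mm at 1764 ± 75.5 CPM with PlaB.

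**Figure D5:**
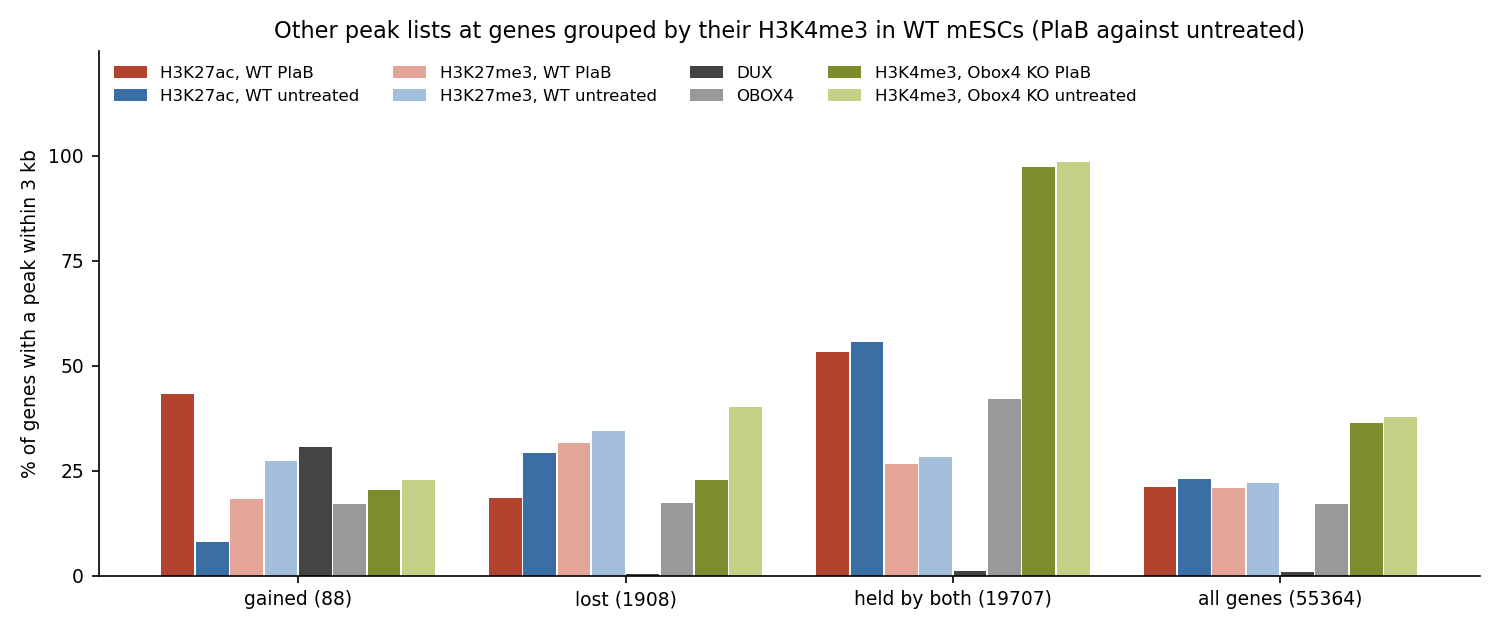
Percent of gained genes (88), lost genes (1908), genes held by both groups (19707) and all genes (55364) with H3K27ac or H3K27me3 in WT mESCs with PlaB and untreated, DUX or OBOX4 peaks, or H3K4me3 held in *Obox4* KO mESCs with PlaB and untreated. At gained genes H3K27ac is at 43.2% with PlaB and 7.95% untreated, and DUX at 30.7%.

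The genes gained in WT were also looked up in *Obox4* KO mESCs. Of the 88, 18 (20.5%) were held in KO mESCs with PlaB and 20 (22.7%) in untreated KO mESCs, beside 36.4% and 37.9% of all genes. The rule for gained genes leaves out every gene with an untreated WT peak, while all genes include those held by both WT groups. Of the latter 97.4% and 98.5% were held in KO mESCs with PlaB and untreated, so the lower share is no result about the knockout. Of genes held by neither WT group, 0.353% and 0.746% were held there. Of the 64 without any peak in untreated KO lists 1 was held with PlaB. All *Zscan4*, *Usp17l* and *Tmem92* genes named above had no peak in any KO list. In a joint limma fit of the 12 lists, 357 of 22821 genes were called higher with PlaB in KO mESCs (1.56%) and 1782 lower (7.81%), and none of the 88 was among the higher ones. The PlaB effect in WT was above that in KO for 1078 genes (4.72%) and below it for 2130 (9.33%). No difference is read from this test for the 88, since they were chosen for their gain in WT. The knockout and the line that carries it cannot be told apart here.

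Of the 1908 genes lost in WT, 435 (22.8%) were held in KO mESCs with PlaB, against 768 (40.3%) in untreated KO mESCs. Over all genes these shares were 36.4% with PlaB and 37.9% untreated. Of the lost genes 403 were called lower in KO, where 7.81% of all genes tested were. *Tnc* had peaks in all 6 KO lists (4.87, 4.08 and 4.05 with PlaB, against 4.73, 5.07 and 3.70 untreated). *Ednrb* fell in both lines, with no peak, 3.74 and 5.15 in KO lists with PlaB, against 9.40, 10.6 and 8.75 untreated. *Dppa2* fell likewise in KO (log2 change −1.57). *Lefty2* went in opposite directions, with a log2 change of 1.04 in KO mESCs and −1.89 in WT mESCs.

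The median number of CG dinucleotides in the 300-base promoter was 3 for gained, 5 for lost and 17 for genes held by both. Over all genes it was 4, close to the gained and lost genes. The letters TGATTNAATCA, which read the same on both strands, were in none of the 88 gained promoters and in 0.023% of all promoters. Within 3 kb of the start they were in 10 of 88 gained genes (11.4%), against 0.157% of lost genes and 0.802% of all genes. The 10 are *Gm4778*, 6 *Zscan4* copies and 3 *Usp17l* copies, which descend from shared copies and are not independent. Among region windows of 300 bases at the summit, 6 of 625 gained ones had the letters (0.96%), against none of the lost and 0.025% of those held by both. A match shows the letters only, and not a bound site.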

How the data were processed

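H3K4me3 CUT&RUN was compared between WT mESCs with PlaB and without it (3 libraries each). The authors trimmed reads with fastp, aligned them with Bowtie2 to GRCm38.p6 and called peaks with MACS3 for each replicate; the control used for calling is not given in the sources used here. The deposited peak lists give the fold enrichment, a ratio of (fragments + 1) to (local background + 1) at the summit, with −log10 p-values and q-values, also from the authors. The deposited gene tables hold counts by featureCounts, and the deposited repeat table holds estimated counts in which the authors split reads with several positions into fractions; CPM were computed from both. Depth is known only as the fragments implied by each list, and gene counts summed to 33504080, 37511823 and 38865755 in the 3 RNA libraries with PlaB and 25713211, 29036871 and 30812366 in those of the uninduced line. Gene starts are those of GENCODE vM21, and sequences are from the RefSeq GRCm38.p6 genome.

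Genes were tested with limma (version 3.58.1, R 4.3.3) on the log2 of the highest enrichment within 3 kb of the start, with the medians of the libraries made equal over genes with a peak in all 6 lists and a list without a peak entered at its lowest enrichment. Covered length and, for repeat names with at least 100 loci and at least 5 of them under a peak, the share of loci (log2 of the percent + 0.1) were tested alike. The limits for a call were 0.05 for p (adjusted after Benjamini and Hochberg over all features) and 1 for the size of the log2 change (1.5-fold for length). Single values per list were compared by exact two-sided permutation. The procedure was tested on simulated data. Python 3.11.15, numpy 2.4.6, pandas 2.3.3 and scipy 1.17.1 were used.

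The members and gene lists were chosen with earlier results of these data known. Named genes were up to 12 gained and 12 lost genes with a peak in all 3 lists of one group and none of the other, by mean enrichment, up to 8 called higher and 8 lower with a peak in all 6 lists, up to 4 changed members of each list, the genes the study names, and up to 5 repeat names in each direction with the MERVL repeats; predicted, clone and pseudogene names were left out of the first 2 kinds. Genes given for a summit close to the start, and others outside this rule (among them predicted genes on chromosome 12, *Sox2*, *Nodal*, *Hoxa5*, *Tex12* and *Meioc*), were chosen after their values were seen. Alternatives were other windows, thresholds, scalings and list sizes and each replicate left out. IgG samples whose labels conflict were not used.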

Additional observations from a re-analysis of the deposited data

Results flagged for a closer look

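The effect of PlaB on H3K4me3 enrichment differed between WT and *Obox4* KO mESCs by the interaction term of the joint limma fit (adjusted p of at most 0.05 and a log2 difference of at least 1), with 1078 genes above and 2130 genes below the KO effect in WT. Where a group had no peak, the size depends on the entry used for such lists. Most of the genes below were named for their change in WT, which favours a difference from KO, so the values are a description. All are log2 differences, WT minus KO.

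Among the genes named by rule, the effect in WT was above that in KO, by enrichment and by summit fragments over the genome background, for *Sycp1* 2.63, *Pramef6* 2.04, *Pramef25* 2.12, *Asz1* 1.39, *Zscan4e* 1.99, *Zscan4f* 2.09, *Mir7-2* 2.18, *Usp17le* 2.56, *Usp17la* 2.31, *Tmem92* 2.43, *Lhcgr* 1.97, *Eif2s3y* 3.73 and *Ddx3y* 4.08. The 2-cell stage families, *Sycp1* and the Y genes stand here. By enrichment and not by summit fragments it was above for *Ube3c* 1.63, *Trim24* 1.10, *Hoxa10* 1.43, *Zxdc* 1.66, *Irf1* 1.23, *Rundc1* 2.08, *Vmn1r204* 1.32, *Atf4* 1.21, *Lmbr1l* 1.12, *Srsf3* 1.16, *Zfp955b* 1.45, *Pou5f1* 1.29 and *Cxxc1* 1.22.

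The effect in WT was below that in KO on both measures for *Nr5a2* −1.39, *Coq8a* −4.51, *Lefty2* −2.94, *Lefty1* −1.51, *Slc7a11* −4.53, *Sohlh2* −1.73, *Rnu11* −2.82, *Mir5098* −3.32, *Sparcl1* −1.58, *Tbx5* −3.02, *Oas1a* −1.22, *Vgf* −3.57, *Hoxa6* −1.55, *Platr31* −1.87, *Il12rb1* −7.69, *Rnf123* −3.83, *Tet1* −1.76, *Hoxb13* −2.45, *Krt19* −2.25, *Pax9* −2.09, *Otx2* −1.39, *Six3* −2.54, *Pdgfrb* −2.97, *Katnal2* −3.23, *Mir5114* −4.33 and *Mir146b* −4.34. *Lefty2* and *Hoxb13* have their summit inside the window, while *Coq8a*, *Il12rb1* and *Rnf123* are cases of a neighbouring peak. By enrichment and not by summit fragments it was below for *Snord70* −1.48, *Snap25* −1.25, *Igf2* −1.97, *Gata4* −1.72 and *Piwil2* −1.65. The knockout line and its culture cannot be told apart from the knockout itself.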

How the results depend on the processing

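The alternatives with matched depth, with summit fragments, with the summit inside the window and without chromosome Y were chosen after seeing the data. The 88 gained genes became 42 with peaks of all 3 replicates, 223 with peaks of any replicate, 154 with only peaks whose summit lies in the window, 42 at a −log10 q of at least 10, 54 within 1 kb and 291 with 31829 peaks per list, under which 588 genes were lost. Gained regions became 263 with all 3 replicates, 343 at the stricter q and 1922 with equal lists, and lost regions 9753 and 3296 under the last pair. Genes lower in enrichment were 1127 among those with a peak in all 6 lists and 2037 with equal lists, and 97 were higher by summit fragments. Wider genes were 45 with medians made equal, 7 at the stricter q and 10 with equal lists, and narrower genes 1133 and 1896 under the first pair. Repeat names called higher were 0 by limma with 1% added, 0 with a larger part of the locus required under a peak, 0 at the stricter q and 25 with medians made equal, and lower ones 80 with 1% added, 20 with medians made equal and 138 with equal lists. Genes with a WT effect above the KO effect were 451 by summit fragments and 624 without the shift of medians. The ratio of peaks was 0.689 at the stricter q and 0.700 with matched depth, where the gain at gene starts was 10.2 points. Directions turned for *Rnf123* (1.19) and *Pax9* (0.0139) with the summit inside, *Pax9* within 1 kb (0.0065), *Rhox5* by summit fragments (0.124), MERVL-int (−0.295) and MT2_Mm (−0.342) at the stricter q, and, with medians made equal, MT2A (0.138), MT2B (0.242), MT2B1 (0.432), MT2B2 (0.190) and MT2C_Mm (0.438), all on the log2 scale. The causes were not tested. Leaving out each replicate gave 55 to 106 gained and 1494 to 2226 lost genes, 330 to 806 gained and 12976 to 18159 lost regions, 292 to 323 higher and 3079 to 3362 lower genes, 11 to 16 wider and 2280 to 3435 narrower genes, and 333 to 435 lower repeat names. The samples share only a replicate number (correlations of 0.016, −0.014 and −0.023), and with the replicate block 303 genes were higher and 3378 lower, 18 wider and 2940 narrower, 2 repeat names higher and 407 lower, and 1046 genes above and 2006 below the KO effect. Over the named genes and repeats, 1674 alternatives left the call as it was, 103 lost it, 19 gained it and 11 turned the direction. With matched depth 95 genes were gained and 1709 lost.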
